A study of Arabidopsis thaliana with 28 samples.

Results

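LTI30 (also called XERO2, locus AT3G50970), COR47 (also called RD17, locus AT1G20440) and AT1G54410 (also called HIRD11) are dehydrin genes of Arabidopsis thaliana. They were taken by gene, each through its own probe set, which gives 3 of the 22810 probe sets on each ATH1 array. All 3 passed the filter on low signals that kept 18190 probe sets for testing. In the gene table, LTI30 lies beside the dehydrin gene XERO1 and COR47 beside the dehydrin gene ERD10, and neither neighbour was analysed here.

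Dehydrins are late embryogenesis abundant (LEA) proteins that lack a fixed fold and carry the lysine-rich K-segment, through which they associate with membranes and other proteins when cells lose water. Many are induced by drying, cold or salt, through abscisic acid and through factors that bind drought-responsive promoter elements. LTI30 is rich in K-segments and histidine and binds membranes, COR47 is an acidic dehydrin first known as a cold-regulated gene, and HIRD11 is a small histidine-rich dehydrin that binds metal ions.

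The plants were wild-type Col-0 (stock N1092), 16 days old, on Murashige and Skoog medium under 16 h days. Drying began 3 h into the light period, when a dry air stream took away 10% of the fresh weight within 15 min, after which the plants stayed in closed vessels in a climate chamber. Shoots and roots were each sampled at 0.25, 0.5, 1, 3, 6, 12 and 24 h, with 2 arrays per tissue and time, which gives 14 groups and 28 arrays. Every group had been dried, no untreated plants were analysed here, and 0.25 h was the reference. Time after drying and clock time therefore cannot be told apart, save that 0.25 h and 24 h fell at nearly the same clock time. Whether replicates came from separate plants is not in the labels, so the p-values speak for the spread between these samples alone, which may be technical. Whole shoots and whole roots were extracted, so that a change in the share of a cell type and a change in transcript per cell cannot be told apart.

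Values are MAS5 signals on a linear scale, and changes are differences of log2(signal + 1.93) ± their standard error (SE) from limma, 2 arrays being in each group. A change was called at a Benjamini-Hochberg adjusted p under 0.05 over all 18190 probe sets. Signals of different probe sets are not on a common scale, so levels were compared only within a gene. Precision is limited by how few arrays there are.

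The tissue labels were checked with the markers that could be matched to a probe set. RCA, the Rubisco activase, had signals of 4347 to 6313 in shoots against 69.4 to 274 in roots, and SBPASE, a Calvin cycle enzyme, had 1928 to 3559 against 14.6 to 47.6. EXPA7, an expansin of root hair cells, had 23.7 to 57.6 in roots against 1.34 to 17.4 in shoots. These were 2 of 16 shoot markers and 1 of 14 root markers, since no other had a probe set of 1 gene in the annotation used. That annotation left 8730 probe sets without a gene, so the other markers may still be on the array. In 12 of the 14 groups the replicates correlated across probe sets at r of 0.978 to 0.984. The shoot replicates correlated at 0.961 at 0.5 h and 0.963 at 1 h, and the best partner of each of these 4 lay in the other of both groups, at 0.979 and 0.980. The labels do not settle whether samples were exchanged between these groups, and the arrays were kept as labelled. Results that rest on these 4 shoot arrays are therefore given with and without them.

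**Figure D1:**
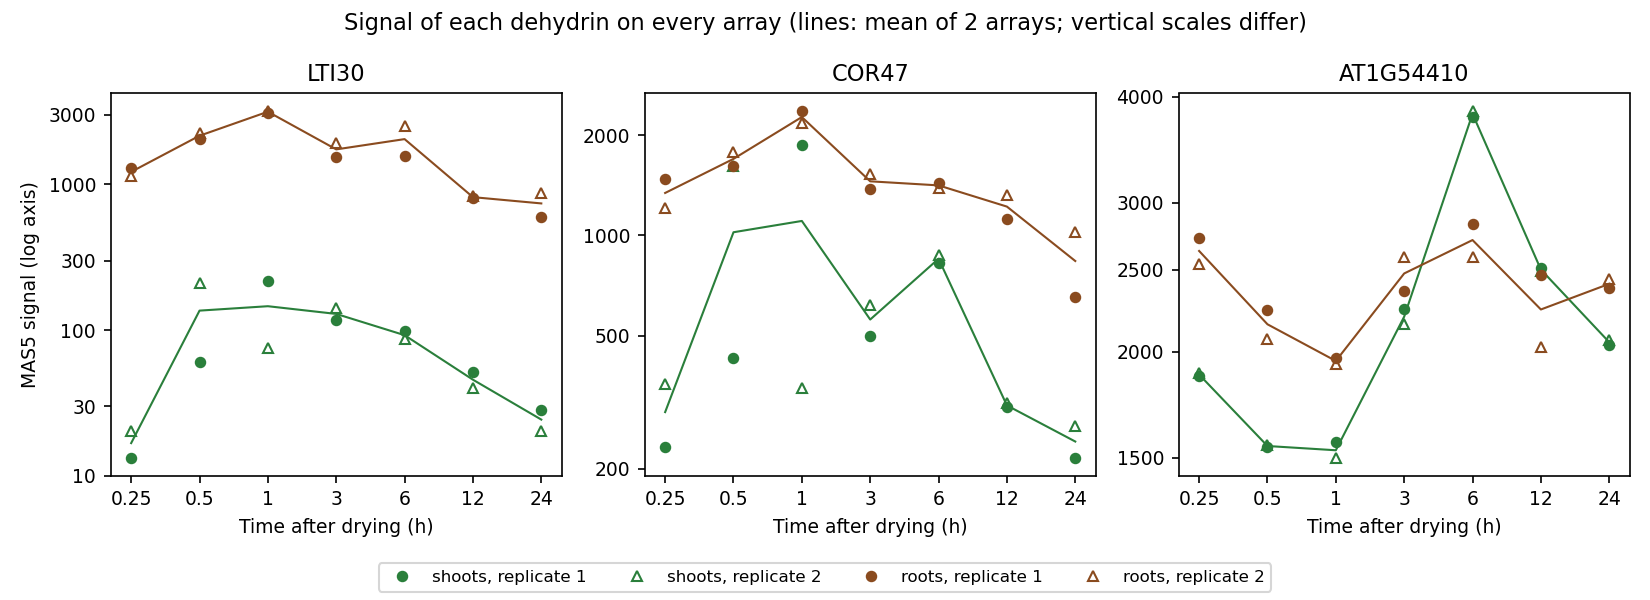
MAS5 signal (log axis) of LTI30, COR47 and AT1G54410 against time after drying (h, evenly spaced labels), with 1 point per array, filled circles for replicate 1, open triangles for replicate 2, and lines for the mean of the 2 arrays. LTI30 ran from 13.2 to 217 in shoots and from 601 to 3192 in roots, and AT1G54410 stood highest in shoots at 6 h, at 3787 and 3848.

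LTI30 transcript rose in shoots within the first sampled interval and fell back over the day. In shoots, LTI30 had signals of 13.2 and 20.3 at 0.25 h, 60.7 and 211 at 0.5 h, 217 and 74.8 at 1 h, and 116 and 142 at 3 h. It then had 97.8 and 86.8 at 6 h, 51.5 and 39.8 at 12 h, and 28.3 and 20.3 at 24 h. Both arrays of each time from 0.5 to 12 h lay above both arrays of 0.25 h, and at 24 h the groups all but touched. The mean signal was highest at 1 h, at 146, against 136 at 0.5 h and 129 at 3 h. On the log2 scale the means of 3 h and 1 h were nearly equal, at 7.03 and 7.02. At 0.25 h the LTI30 signal was close to the 30th percentile of the shoot arrays, which was 11.3 to 14.7, so that its starting level is close to the low end of the measured range.

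For 0.5, 1 and 3 h the shoot changes of LTI30 were 2.65, 2.82 and 2.83, each ± 0.44, with adjusted p of 0.00116, 0.000757 and 8.06e-05. For 6, 12 and 24 h they were 2.36, 1.36 and 0.50, each ± 0.44, with adjusted p of 0.00036, 0.0284 and 0.544. The shares of all probe sets called higher at these 6 times were 5.09%, 5.17%, 14.9%, 17.7%, 14.7% and 5.39%. LTI30 was thus called higher at 5 of the 6 later times. The 12 h call was lost without replicate 1 of 0.25 h (1.09, adjusted p = 0.193), without replicate 1 of 12 h (1.18, 0.153) and without replicate 2 of 12 h (1.54, 0.0638).

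The LTI30 replicates were far apart at 0.5 h and 1 h, by 3.48 and 2.90 times, against at most 1.62 times in the other 12 groups. Replicate 2 of 0.5 h and replicate 1 of 1 h were the high arrays, and they differed from each other by 1.03 times. With these 4 arrays as 1 group, LTI30 changed by 2.74 ± 0.37 (adjusted p = 7.42e-05). Without replicate 2 of 0.5 h its change at 0.5 h was 1.77 (adjusted p = 0.0251), and without replicate 1 of 1 h its change at 1 h was 2.06 (0.0246). LTI30 thus stayed called at both times on the lower array alone. In the fit without the 4 arrays, the changes at 3, 6 and 12 h had SE 0.23 and adjusted p of 6.33e-08, 2.95e-07 and 0.000192, where 33.1%, 37.3% and 30.6% of probe sets were called either way.

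Measured tissue markers also moved in shoots. EXPA7, the root marker, had shoot signals of 8.54 and 17.4 at 0.25 h, 2.94 and 3.89 at 0.5 h, 5.79 and 15.4 at 1 h, 7.31 and 10.5 at 3 h, 15.8 and 16.3 at 6 h, 1.34 and 5.21 at 12 h, and 7.26 and 9.41 at 24 h. These lay around or below the 30th percentile of the shoot arrays, so that EXPA7 changes there are imprecise. It fell by 1.42 at 0.5 h (adjusted p = 0.0334) and by 1.56 at 12 h (0.00613), and at 6 h, when all 3 dehydrins were called higher, its change was 0.34 ± 0.39 (0.568). The 0.5 h call of EXPA7 rests on 2 of the 4 early shoot arrays.

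SBPASE, a shoot marker, fell by 0.71 ± 0.25 on the log2 scale at 3 h (adjusted p = 0.0399) and fell by 0.81 ± 0.25 at 6 h (0.0173), times at which LTI30 was high in shoots. The shoot signals of SBPASE were 3559 and 3390 at 0.25 h, 2308 and 1953 at 3 h, and 1928 and 2034 at 6 h. RCA was called at no time in shoots, with changes of -0.37 ± 0.31 at 3 h (0.41) and -0.35 ± 0.31 at 6 h (0.429). The part of tissue makeup in the shoot values of the dehydrins was not tested.

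**Figure D2:**
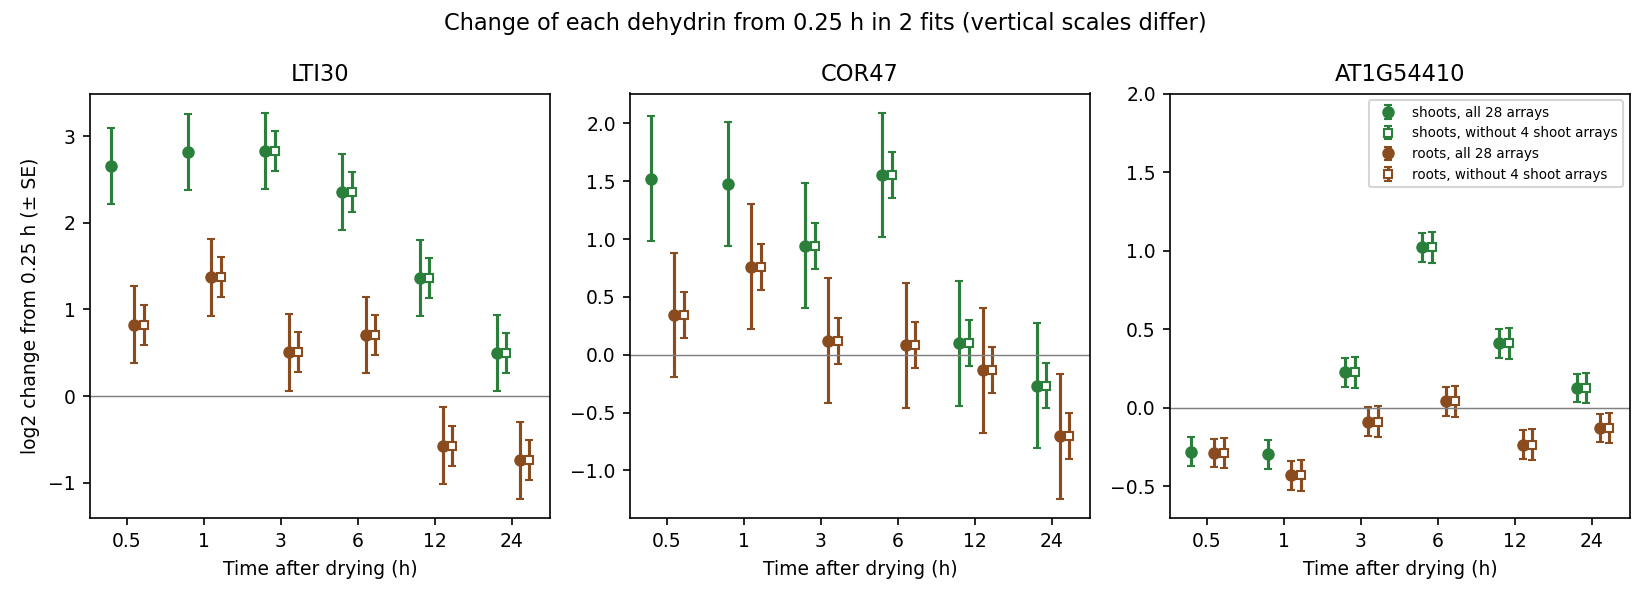
Change from 0.25 h as log2(signal + 1.93) ± SE of limma's model, n = 2 arrays a group, for each dehydrin in shoots (green) and roots (brown) at the 6 later times, with filled circles for the fit of 28 arrays and open squares for that without the 4 shoot arrays. Shoot LTI30 stood at 2.36 to 2.83 from 0.5 to 6 h, and AT1G54410 stood at 1.02 in shoots at 6 h with an SE of 0.092.

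In roots LTI30 had signals above those of shoots at every time. Its group mean signals spanned a narrower range there, 4.26 times against 8.70 times in shoots. The shoot span ran from the dim 0.25 h mean of 16.8 to the 1 h mean of 146, whose replicates lay far apart. Root LTI30 had signals of 1292 and 1143 at 0.25 h, 2044 and 2264 at 0.5 h, 3105 and 3192 at 1 h, and 1542 and 1931 at 3 h. It had 1559 and 2526 at 6 h, 802 and 831 at 12 h, and 601 and 878 at 24 h. Both arrays of 0.5, 1, 3 and 6 h lay above both of 0.25 h, the highest being those of 1 h, and both arrays of 12 h and 24 h lay below them. The root time course of LTI30 passed the F test over the 7 times (adjusted p = 0.00866, where 27.6% of probe sets passed), as did its shoot time course (4.66e-05, where 50.4% passed).

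The single root changes of LTI30 passed the test at none of the 6 times in the fit of 28 arrays. For 0.5, 1 and 3 h they were 0.82, 1.37 and 0.51, each ± 0.44, with adjusted p of 0.335, 0.0696 and 0.654. For 6, 12 and 24 h they were 0.71, -0.57 and -0.74, each ± 0.44, with adjusted p of 0.361, 0.512 and 0.58. The shares of all probe sets called either way in roots at the 6 times were 4.81%, 6.84%, 3.58%, 10.3%, 7.88% and 2.21%. That SE draws on all groups, including the shoot replicates that lay far apart. In the fit without the 4 shoot arrays it was 0.23, and root LTI30 was called higher at 0.5 h (0.0354), 1 h (0.000959) and 6 h (0.0482), where 8.08%, 10.7% and 14.4% of probe sets were called either way. In that fit the root level also fell by 1.94 ± 0.23 from 1 h to 12 h (1.56e-05, with 19.7% of probe sets called) and fell by 2.11 ± 0.23 from 1 h to 24 h (9.98e-06, with 16.1%).

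COR47 also had its higher shoot signals between 0.5 h and 6 h, with less precise changes than LTI30. In shoots, COR47 had signals of 233 and 358 at 0.25 h, 430 and 1616 at 0.5 h, 1861 and 350 at 1 h, and 501 and 619 at 3 h. It had 828 and 876 at 6 h, 305 and 314 at 12 h, and 215 and 268 at 24 h. The arrays of 3 h and 6 h all lay above those of 0.25 h, of those of 1 h one lay above and the other between them, and those of 12 h lay between the arrays of 0.25 h. The level at 6 h was tight between replicates, while that at 1 h spanned 5.32 times and that at 0.5 h 3.76 times, against at most 1.56 times elsewhere.

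In the fit of 28 arrays COR47 passed the test in shoots only at 6 h, with 1.55 ± 0.54 (adjusted p = 0.0324). For 0.5, 1 and 3 h its changes were 1.52, 1.48 and 0.94, each ± 0.54, with adjusted p of 0.0896, 0.0988 and 0.21. For 12 and 24 h they were 0.10 and -0.27, each ± 0.54, with adjusted p of 0.92 and 0.822. Without the 4 arrays the SE was 0.20, and COR47 was called higher at 3 h (0.00127) and 6 h (6.37e-06). In that fit its level fell by 1.45 ± 0.20 from 6 h to 12 h (adjusted p = 5.61e-05, with 18.8% of probe sets called). The call at 6 h in the 28-array fit was lost without replicate 1 of 0.25 h (1.24, adjusted p = 0.203), without replicate 1 of 6 h (1.59, 0.0981) and without replicate 2 of 6 h (1.51, 0.121).

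The early shoot values of COR47 depended on which of the 4 arrays were counted. Without replicate 2 of 0.5 h the change at 0.5 h was 0.57 (adjusted p = 0.654), and without replicate 1 of 0.5 h it was 2.48 (0.00628). Without replicate 1 of 1 h the change at 1 h was 0.28 (0.864), and without replicate 2 of 1 h it was 2.68 (0.000802). With the 4 arrays as 1 group COR47 rose by 1.50 ± 0.45 (adjusted p = 0.0322), where 8.29% of probe sets were called higher. The high COR47 arrays were those that were high in LTI30: replicate 2 of 0.5 h and replicate 1 of 1 h differed by 1.15 times, and replicate 1 of 0.5 h and replicate 2 of 1 h had a ratio of 0.815.

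**Figure D3:**
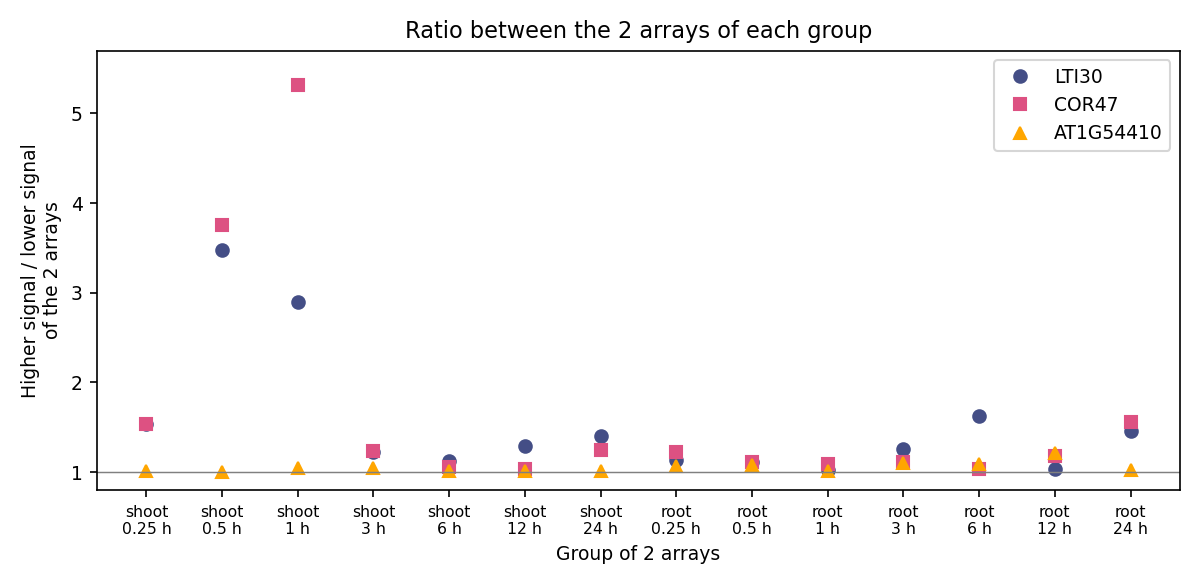
Ratio of the higher to the lower replicate signal (linear axis, no unit) of each dehydrin in the 14 groups. The shoot groups of 0.5 h and 1 h stand apart for LTI30 (3.48 and 2.90) and COR47 (3.76 and 5.32), and no ratio of AT1G54410 exceeded 1.22.

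Root COR47 had signals of 1474 and 1208 at 0.25 h, 1610 and 1784 at 0.5 h, 2363 and 2166 at 1 h, and 1376 and 1531 at 3 h. It had 1440 and 1386 at 6 h, 1120 and 1321 at 12 h, and 655 and 1022 at 24 h. The arrays of 0.5 h and 1 h lay above both of 0.25 h, those of 3, 6 and 12 h overlapped them, and those of 24 h lay below. Its 6 root changes ran from -0.70 ± 0.54 at 24 h (adjusted p = 0.711) to 0.76 ± 0.54 at 1 h (0.476), with none called. The root time course of COR47 had an adjusted p of 0.418 with 28 arrays and 0.000793 without the 4 shoot arrays, where 34.7% of probe sets passed. In the latter fit the change at 1 h was called (0.0192), and the level fell by 1.46 ± 0.20 from 1 h to 24 h (7.63e-05). The shoot time course of COR47 passed with all arrays (0.0162) and without the 4 (2.65e-06), where 51.9% of probe sets passed.

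AT1G54410 followed another course in shoots: its signal was lower early, peaked at 6 h and stayed above the start at 12 h. In shoots, AT1G54410 had signals of 1874 and 1886 at 0.25 h, 1544 and 1552 at 0.5 h, 1564 and 1497 at 1 h, and 2244 and 2157 at 3 h. It had 3787 and 3848 at 6 h, 2509 and 2492 at 12 h, and 2039 and 2066 at 24 h. The arrays of 0.5 h and 1 h lay below both of 0.25 h, and those of 3, 6, 12 and 24 h lay above them, with replicates that nearly coincided.

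AT1G54410 rose by 1.02 ± 0.092 at 6 h (adjusted p = 7.41e-08) and by 0.41 ± 0.092 at 12 h (0.00238) in shoots. For 0.5, 1, 3 and 24 h its changes were -0.28, -0.30, 0.23 and 0.13, each ± 0.092, with adjusted p of 0.0675, 0.0523, 0.0725 and 0.435. After quantile normalization the changes at 0.5 h and 1 h were -0.16 and -0.16, with adjusted p of 0.32 and 0.293. With the 4 early arrays as 1 group the early change was -0.29 ± 0.077 and was called (0.017), where 5.54% of probe sets were called lower. LTI30 was called higher in that pooled group, and both genes were called higher at 6 h and 12 h. The 4 arrays that disagreed for LTI30 and COR47 spanned only 1497 to 1564 in AT1G54410.

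Root AT1G54410 had signals of 2722 and 2539 at 0.25 h, 2241 and 2069 at 0.5 h, 1966 and 1936 at 1 h, and 2361 and 2587 at 3 h. It had 2829 and 2590 at 6 h, 2463 and 2024 at 12 h, and 2377 and 2434 at 24 h. The arrays of 0.5, 1, 12 and 24 h lay below both arrays of 0.25 h, and those of 3 h and 6 h overlapped them. AT1G54410 fell by 0.43 ± 0.092 on the log2 scale in roots at 1 h (adjusted p = 0.00804), and it was called there at no other time. That call was lost without replicate 1 of 0.25 h (-0.38, adjusted p = 0.103) or replicate 2 of 1 h (-0.42, 0.0728). The other root changes ran from -0.29 ± 0.092 at 0.5 h (0.0811) to 0.04 ± 0.092 at 6 h (0.845). The time course of AT1G54410 passed the F test in shoots (1.45e-08) and in roots (0.0061).

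The order of the 7 times by fitted level differed between the genes. Shoot LTI30 ran 3, 1, 0.5, 6, 12, 24 and 0.25 h from highest to lowest, and shoot COR47 ran 6, 0.5, 1, 3, 12, 0.25 and 24 h. Shoot AT1G54410 ran 6, 12, 3, 24, 0.25, 0.5 and 1 h, and 6 h over 12 h, by 0.61 ± 0.092 (adjusted p = 0.000167, with 14.3% of probe sets called either way), was the only pair of neighbours in any of the 6 orders that passed the test with 28 arrays. In roots LTI30 ran 1, 0.5, 6, 3, 0.25, 12 and 24 h, COR47 ran 1, 0.5, 3, 6, 0.25, 12 and 24 h, and AT1G54410 ran 6, 0.25, 3, 24, 12, 0.5 and 1 h. Root LTI30 and COR47 thus had their highest level at 1 h, the time at which root AT1G54410 had its lowest. When the 4 shoot arrays were left out, shoot LTI30 also fell by 0.99 ± 0.23 from 6 h to 12 h (adjusted p = 0.00531) and fell by 0.86 ± 0.23 from 12 h to 24 h (0.0108, with 24.5% of probe sets called). In the same fit shoot COR47 fell by 0.84 ± 0.20 from 3 h to 12 h (0.00502, with 21.2% called).

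Over all pairs of times, 12 of 21 differed for LTI30 in shoots, 4 for COR47 and 14 for AT1G54410, where a median of 19.6% of probe sets were called per pair. In roots 4 of 21 pairs differed for LTI30, 0 for COR47 and 5 for AT1G54410, where the median was 7.7%. Among the 10 shoot pairs left without the 4 arrays, the counts were 8 for LTI30, 6 for COR47 and 6 for AT1G54410, where 10.9% to 37.3% of probe sets were called. In the same fit 12, 7 and 5 of the 21 root pairs differed, where the median was 11.1%. The residual SD of log2 signal was 0.50 for LTI30, 0.62 for COR47 and 0.072 for AT1G54410, against a median of 0.205 over all probe sets. Without the 4 arrays it was 0.264, 0.223 and 0.0772, so the COR47 residual fell to near the median, which was then 0.184.

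**Figure D4:**
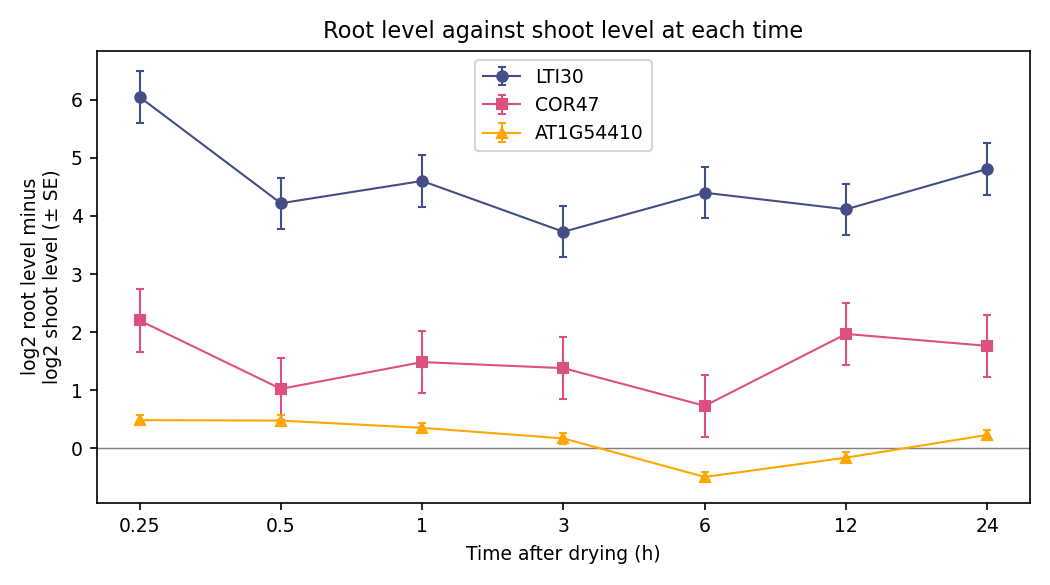
Root minus shoot difference of log2(signal + 1.93) ± SE at each of the 7 times, n = 2 arrays a group, for each dehydrin. LTI30 stood at 3.73 to 6.05, COR47 at 0.73 to 2.20, and AT1G54410 between -0.50 and 0.48, with its lowest value at 6 h; quantile normalization turned that value to 0.28.

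LTI30 was higher in roots than in shoots at all 7 times. In order of time, the root minus shoot difference was 6.05, 4.22, 4.60, 3.73, 4.40, 4.12 and 4.81, each ± 0.44. The shares of all probe sets called higher in roots were 44.2%, 41.1%, 41.7%, 43.2%, 41.6%, 42.7% and 42.6%. The ratio of mean signals ran from 13.5 to 72.6, and the lowest root signal of LTI30, 601, lay above its highest shoot signal, 217. Averaged over the times the difference was 4.56 ± 0.17 (adjusted p = 1.57e-15), where 55.4% of probe sets were called higher in roots. Over all tested probe sets the median difference was 0.289, and 0.161 after quantile normalization.

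COR47 was also higher in roots, by 1.51 ± 0.20 on average (adjusted p = 1.05e-06). For 0.25, 1, 3, 12 and 24 h the difference was 2.20, 1.48, 1.38, 1.97 and 1.76, each ± 0.54 and called. For 0.5 and 6 h it was 1.02 and 0.73, each ± 0.54, with adjusted p of 0.104 and 0.243, and the 6 h value was called without the 4 arrays (0.00331). The 0.5 h value was 0.069 (adjusted p = 0.925) without shoot replicate 1 of 0.5 h and 1.98 (0.00448) without shoot replicate 2. It was also called after quantile normalization (1.42, 0.0203), with the 4 arrays as 1 group (1.04, 0.0467), and without either shoot array of 1 h (1.02, 0.0222 in both). Root and shoot arrays of COR47 overlapped only at 0.5 h. Without replicate 2 of 1 h in shoots, the difference at 1 h was 0.28 (adjusted p = 0.614). Calls of COR47 at 3 h were lost without any 1 of its 4 arrays there (adjusted p from 0.0594 to 0.131), at 1 h also without either root array (0.0801 and 0.0584), and at 24 h without root replicate 2 (0.069).

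AT1G54410 had a tissue difference that changed sign over time in the deposited scaling. It was higher in roots by 0.48 ± 0.092 at 0.25 h and 0.5 h, 0.35 ± 0.092 at 1 h and 0.23 ± 0.092 at 24 h, and its difference at 6 h was -0.50 ± 0.092 (adjusted p = 9.93e-05), where 24.1% of probe sets were called lower in roots. The differences at 3 h, 0.17 ± 0.092 (adjusted p = 0.115), and 12 h, -0.16 ± 0.092 (0.127), were not called, and the latter was called without replicate 1 of roots at 12 h (-0.30, 0.0123). After quantile normalization AT1G54410 was called higher in roots at 3 h (0.87, adjusted p = 8.04e-08), 6 h (0.28, 0.0111) and 12 h (0.41, 0.000548), so that its tissue difference at these times depended on the scaling. Its call at 24 h (0.0338) was lost without any 1 of the 4 arrays of that time (adjusted p from 0.0753 to 0.123). Its mean difference was 0.15 ± 0.035 (0.00053) with all arrays and 0.04 ± 0.044 (0.35) over the 5 times left without the 4 arrays.

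The change from 0.25 h itself was compared between tissues. For LTI30 the root minus shoot difference reached -2.32 ± 0.63 at 3 h (adjusted p = 0.0217), and at 12 h it was -1.94 ± 0.63 (0.0416), the shoot change being the larger at both times. The shares of all probe sets called either way at the 6 later times were 2.12%, 2.98%, 10.9%, 16.9%, 15.8% and 3.23%. Without the 4 arrays LTI30 also differed at 6 h (-1.65 ± 0.33, adjusted p = 0.00146) and 24 h (-1.24 ± 0.33, 0.0328), where 20.8% and 5.86% were called. The F test over the 6 differences gave LTI30 an adjusted p of 0.101 with all arrays and 0.000347 without the 4, where 28.7% and 31.7% of probe sets passed. The call at 3 h was lost without replicate 1 of shoots at 0.25 h (-2.05, adjusted p = 0.0949), replicate 1 of roots at 0.25 h (-2.23, 0.068), replicate 2 of shoots at 3 h (-2.18, 0.0821) or replicate 1 of roots at 3 h (-2.16, 0.072).

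COR47 changes did not pass this test at any time with all arrays, and without the 4 arrays the root change was lower at 6 h (-1.47 ± 0.28, adjusted p = 0.00106). The F test gave COR47 0.597 with all arrays and 0.0043 without the 4. For AT1G54410 at 6 h the difference in change was -0.98 ± 0.13 (adjusted p = 3.72e-05), and at 12 h it was -0.65 ± 0.13 (0.00229). The F test over the 6 times passed for AT1G54410 (9.53e-05) and also without the 4 arrays (0.000344).

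LTI30 and COR47 followed each other across the groups. As a description, their group means of log2 signal correlated at r = 0.93 over the 14 groups, 0.89 over the 7 shoot groups and 0.92 over the 7 root groups, and at 0.96 over the 12 groups left without the 4 arrays. AT1G54410 correlated with LTI30 at 0.18 and with COR47 at 0.13 over the 14 groups. Within roots these values were -0.36 and -0.53, and over the 7 shoot groups they were -0.02 and 0.01. Over the 5 shoot groups left without the 4 arrays they were 0.60 with LTI30 and 0.80 with COR47, so the shoot values turned on those arrays. LTI30 and COR47 correlated at 0.84 over the same 5 shoot groups, close to the 0.80 of COR47 and AT1G54410. All points share their arrays and the split between tissues, which a correlation over the 14 groups picks up.

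The genes whose group means were most like each dehydrin were found among 10017 named genes by the same correlation over the 14 groups. Such a likeness takes in the split between tissues as well as the course over time. For LTI30 they were KEU, a Sec1-type protein of vesicle fusion at cell division (0.99), AT2G48100 (0.98), NET1D, an actin-binding protein (0.98), DER2.2, a Derlin (0.98), and AT1G61370 (0.98). KEU correlated with LTI30 at 0.90 within shoots and 0.96 within roots, over mean levels of 114 to 180 in shoots and 232 to 322 in roots, a narrower range than that of LTI30. For COR47 they were AT5G05140 (0.96), AT4G09950 (0.95), AT2G38250 (0.95), SEC15B, an exocyst subunit (0.94), and LTI30 itself (0.93). In the other direction COR47 ranked 251 among the genes most like LTI30 over the 14 groups, which is not a rank of the time course alone. Within shoots and within roots COR47 correlated with LTI30 at 0.89 and 0.92. For AT1G54410 they were AT1G06700 (0.94), GAMMA-VPE, a vacuolar processing enzyme (0.93), AT1G74680 (0.93), ATG8C, an autophagy protein (0.92), and AT1G12120 (0.92). GAMMA-VPE and ATG8C correlated with AT1G54410 at 0.95 each within shoots and at 0.84 and 0.89 within roots. The lowest values within roots were 0.78 for NET1D with LTI30, 0.76 for AT4G09950 with COR47 and 0.67 for AT1G12120 with AT1G54410. Some of the listed genes were dim in shoots. Mean levels there were 6.80 to 18.4 for AT1G61370, 9.20 to 20.0 for AT4G09950 and 1.66 to 13.2 for AT2G38250. These lay around or below the 30th percentile of the shoot arrays (11.3 to 14.7), so that their shoot courses are imprecise.

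Of 10 listed dehydrins, 6 had a probe set of 1 gene in the annotation used and 4 were tested. The fourth, AT4G38410, had signals of 2.83 to 17.2 in shoots (median 11.9) and 38.1 to 101 in roots (median 64.7), with no overlap of the tissues. No change of AT4G38410 passed the test, the lowest being -1.14 ± 0.39 in shoots at 24 h (adjusted p = 0.0716). Its shoot signals, 2.83 and 12.9 at 24 h, lay around or below the 30th percentile of the shoot arrays (11.3 to 14.7). The shoot changes of AT4G38410 are therefore imprecise. All calls in the dehydrin counts below came from LTI30, COR47 and AT1G54410. These genes were chosen with earlier results known, so the counts restate their calls and do not test the family. LEA, with 1.17 to 14.7 in shoots and 0.867 to 8.73 in roots, and AT4G39130, with 0.713 to 10.1 and 0.229 to 6.98, did not pass the filter on low signals. Among the 4 tested dehydrins in shoots, 1 was called higher at each of 0.5, 1 and 3 h, 3 at 6 h, 2 at 12 h and 0 at 24 h, against 5.09%, 5.17%, 14.9%, 17.7%, 14.7% and 5.39% of all probe sets. Without the 4 arrays the counts at 3, 6, 12 and 24 h were 2, 3, 2 and 0, where 17.2%, 19.7%, 16.9% and 7.89% of probe sets were called higher. In roots 1 of the 4 was called lower at 1 h, where 3.36% of probe sets were, and none was called at the other 5 times. The root counts without the 4 arrays were 1 higher at 0.5 h (3.57% of probe sets), 2 higher (5.53%) and 1 lower (5.14%) at 1 h, and 1 higher at 6 h (7.37%), with none called at 3, 12 or 24 h.

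**Figure D5:**
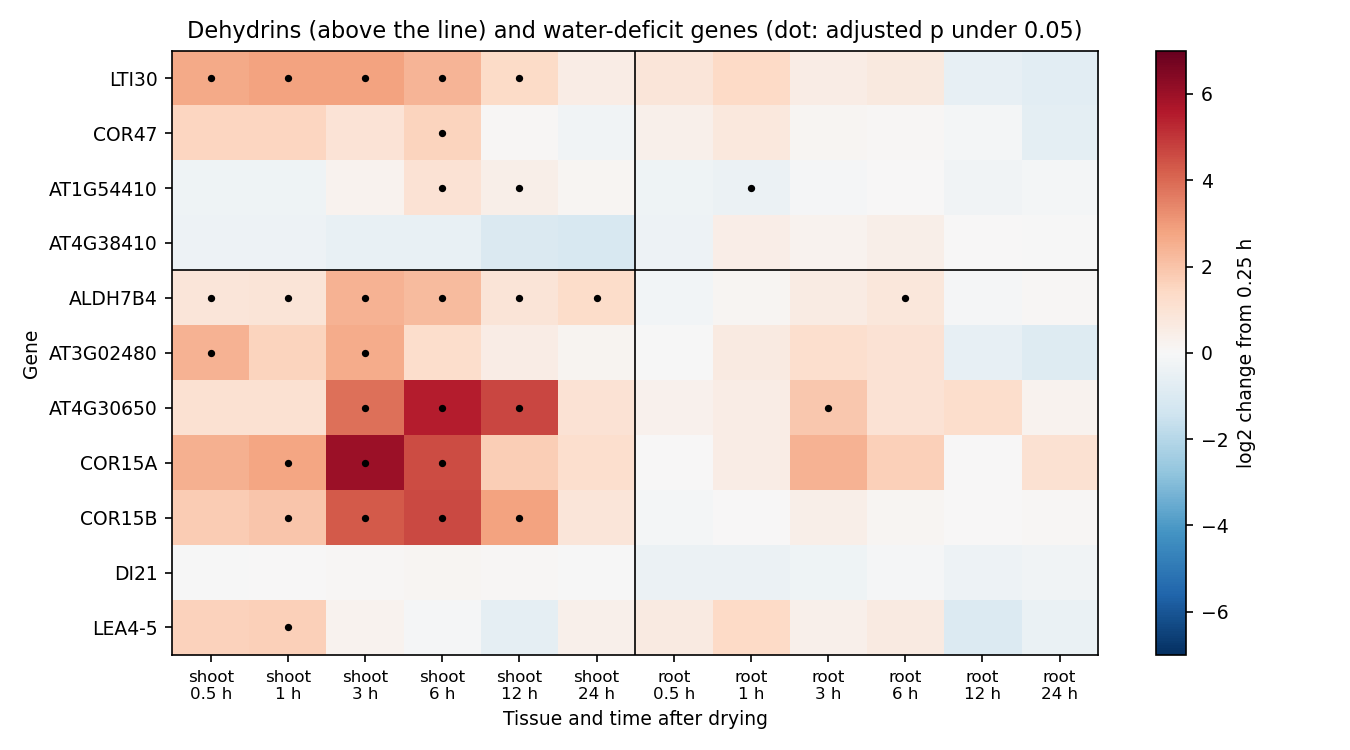
Change from 0.25 h in log2(signal + 1.93) for the 4 tested dehydrins and the 7 tested genes of the water-deficit list, by tissue and time, as a colour scale from blue (lower) to red (higher) with a dot where the change was called. In shoots at 6 h AT4G30650 stood at 5.51, COR15B at 4.63 and LTI30 at 2.36, while DI21 stayed within 0.14 of 0 in shoots at every time.

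A list of 44 other genes known to respond to water loss or cold was chosen with earlier results of these data known. Its counts are therefore a description and not a test. Of the 44 genes, 8 had a probe set of 1 gene in the annotation used, and 7 were tested. Their shoot median changes were 1.61, 1.55, 2.59, 2.20, 0.90 and 0.87 at the 6 later times, and the medians of all tested probe sets lay between -0.02 and 0.07. In shoots 2, 4, 5, 4, 3 and 1 of the 7 were called higher, against 5.09%, 5.17%, 14.9%, 17.7%, 14.7% and 5.39% of all probe sets. None was called lower, where 2.85% to 15.8% of probe sets were. Without the 4 arrays, 5, 4, 4 and 3 of 7 were called higher at 3, 6, 12 and 24 h, where 17.2%, 19.7%, 16.9% and 7.89% of probe sets were. In roots none was called lower, where 1.71% to 5.01% of probe sets were. Of the 7, 1 was called higher there at 3 h and 1 at 6 h, and none at the other times. The shares of probe sets called higher at 3 h and 6 h were 1.75% and 5.32%. The count was 3 of 7 at each of these 2 times when the 4 arrays were left out, where 2.83% and 7.37% were called higher, and 1 of 7 at 12 h and at 24 h (5.03% and 0.935%).

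COR15A and COR15B, chloroplast LEA proteins of cold and drought, rose in shoots by 4.58 ± 0.77 and 4.63 ± 0.59 at 6 h. Unlike LTI30 and COR47, COR15A was dim in roots, at 0.684 to 15.9 there against 29.8 to 2288 in shoots. AT4G30650 rose in shoots by 3.85 ± 0.49 at 3 h and 5.51 ± 0.49 at 6 h, the time of the AT1G54410 peak, and in roots by 1.90 ± 0.49 at 3 h (adjusted p = 0.0355). ALDH7B4, an aldehyde dehydrogenase of stressed plants, was called at all 6 shoot times, with 2.45 ± 0.19 at 3 h. AT3G02480 had shoot signals of 1.09 and 0.645 at 0.25 h, 10.0 and 17.4 at 0.5 h, and 15.2 and 14.6 at 3 h. It was called at 0.5 h (adjusted p = 0.044) and 3 h (0.0109), and since its 0.25 h signals lay far below the arrays' 30th percentile, no size of change is given. LEA4-5 had shoot signals of 2.61 and 4.73 at 0.25 h, also below that percentile, and 19.1 and 12.4 at 1 h, the only time it was called (0.0493). The 0.5 h call of AT3G02480 and the call of LEA4-5 each rest on 2 of the 4 early shoot arrays. So do the 0.5 h and 1 h calls of ALDH7B4 and the 1 h calls of COR15A (0.0309) and COR15B (0.0465). At 1 h the shoot signals were 798 and 72.8 for COR15A, and 286 and 51.0 for COR15B. DI21, named for drought induction, was called at no time in either tissue, at signals of 39.5 to 82.4 in shoots and 658 to 1309 in roots.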

How the data were processed

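RNA of shoots and roots at 7 times was measured on 28 ATH1 arrays, 2 per group, grouped by the labels. The deposited values are signal intensities on a linear scale, 1 per probe set, made with MAS5 per the submitters' processing notes (no version given). The mean with 2% trimmed at each end was 100.01 on every array, so a shift shared by most transcripts cannot be seen. Within a tissue the array medians lay within 1.10 times of each other and were not rescaled.

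From these, log2(signal + 1.93) was computed, the pseudocount being the 10th percentile of all values, which understates changes of dim transcripts. The 64 control probe sets were left out. Probe sets above their array's 30th percentile on both arrays of at least 1 group were kept (18190), and 4556 were removed. The means of the 14 groups were fitted with limma 3.58.1 (R 4.3.3), using a trended prior on the variance and 14 residual degrees of freedom, with two-sided tests and Benjamini-Hochberg adjustment within each contrast at 0.05. The fit was tested on simulated data. Gene names came from the platform annotation (13513 probe sets with 1 gene, 503 with several, 8730 with none). The TAIR10.1 gene table, in which 13436 matched, gave symbols and neighbouring genes only.

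Named genes were the 3 dehydrins, list members that were called or are dehydrins, and the 5 most correlated genes for each dehydrin, taking the brightest probe set of a gene. The dehydrins and the lists were chosen with earlier results of these data known. Alternatives changed the pseudocount, filter, scaling, variance prior, array weights, replicate block, arrays fitted, reference time and each array in turn. The counts of pairs of times and of list members without the 4 early shoot arrays (0.5 h, 1 h) were added after seeing the data. Where an array is left out, its group has 1, assumed to vary like the others. Replicate numbers were not taken as pairs in the main fit. Deviations of same-numbered arrays correlated at -0.58 to 0.20 over 91 pairs of groups, with 4 over 0.1. These values cannot say whether same-numbered samples were collected together.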

Additional observations from a re-analysis of the deposited data

Results flagged for a closer look

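For 2 of the 3 dehydrins the change from 0.25 h differed between tissues by the test of the difference itself. The root minus shoot difference in change was -2.32 ± 0.63 for LTI30 at 3 h (adjusted p = 0.0217) and -1.94 ± 0.63 at 12 h (0.0416), where 10.9% and 15.8% of probe sets were called either way. For AT1G54410 it was -0.98 ± 0.13 at 6 h (3.72e-05, with 16.9% called) and -0.65 ± 0.13 at 12 h (0.00229). The F test over the 6 times passed for AT1G54410 (9.53e-05), with -0.98 as the difference of greatest size. LTI30 at 12 h had the least firm of these calls: it was lost without any filter on low signals (adjusted p = 0.052), with the 30th percentile as pseudocount (-1.54, 0.0648), with median scaling (-1.89, 0.0565), without a trend in the variance prior (0.0575) and in 11 of 28 fits that left out 1 array (adjusted p up to 0.148). When the 4 early shoot arrays (0.5 h, 1 h) were left out, its adjusted p was 0.000468.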

How the results depend on the processing

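Of 642 values for the 48 changes, time courses and mean tissue differences under 14 alternatives, 602 kept their direction and side of the threshold, 34 newly passed, 5 no longer passed and 1 changed sign. The 5 lost calls were LTI30 in shoots at 12 h with the 30th percentile as pseudocount (0.97, adjusted p = 0.0782) and with only the 14 shoot arrays (1.36, 0.0973), COR47 in shoots at 6 h (1.55, 0.112) and over the shoot time course (widest difference 1.82, 0.127) with only the shoot arrays, and the mean tissue difference of AT1G54410 without the 4 early shoot arrays (0.5 h, 1 h; 0.044, 0.35). With the mean of both 0.25 h and 24 h as reference, COR47 in roots at 12 h turned to 0.22. That reference added calls for COR47 in shoots at 0.5 h (1.66) and 1 h (1.61), AT1G54410 there (-0.34 and -0.36), and LTI30 in roots at 1 h (1.74). LTI30 in roots at 1 h was also called with the 30th percentile as pseudocount (1.36), after quantile normalization (1.72) and with array weights, with only the root arrays and without the 4 arrays (1.37 in each). Only the root arrays, or leaving out the 4, also gave calls for LTI30 in roots at 0.5 h (0.82) and for COR47 in roots at 1 h (0.76) and over the root time course (widest difference 1.46). Leaving out the 4 added LTI30 in roots at 6 h (0.71), COR47 in shoots at 3 h (0.94), and the tissue difference over time of LTI30 (-2.32, also with array weights) and COR47 (-1.47). The 4 arrays as 1 group added COR47 (1.50) and AT1G54410 (-0.29) in early shoots. AT1G54410 in shoots at 1 h passed with the 30th percentile as pseudocount (-0.29), the 50th as filter or only the shoot arrays (-0.30 in both) and median scaling (-0.36). It passed in shoots at 3 h with quantile normalization (0.31) and with only the shoot arrays (0.23), and in roots at 0.5 h (-0.32) and 12 h (-0.32) with quantile normalization and at 0.5 h with array weights (-0.29). The tissue difference in AT1G54410 change at 0.5 h turned to 0.11 with median scaling and 0.00075 with the 4 as 1 group, and its level difference turned to 0.28 at 6 h and 0.41 at 12 h, and went from 0.17 to 0.87 at 3 h, with quantile normalization.

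Leaving out 1 array at a time, values with a changed call or sign ranged as follows, beside those given with the results above. In shoots COR47 ranged from 0.57 to 2.48 at 0.5 h, 0.28 to 2.68 at 1 h, 1.24 to 1.86 at 6 h, -0.21 to 0.41 at 12 h and -0.58 to 0.043 at 24 h. LTI30 in shoots at 12 h ranged from 1.09 to 1.64, and AT1G54410 in shoots from -0.28 to -0.28 at 0.5 h, -0.33 to -0.27 at 1 h and 0.20 to 0.26 at 3 h. Those 3 AT1G54410 changes, and its root change at 0.5 h (-0.34 to -0.23), were called without either root array of 12 h. In roots LTI30 at 1 h ranged from 1.28 to 1.46 and was called without any 1 of the 4 shoot arrays, COR47 from -0.022 to 0.26 at 3 h, -0.061 to 0.23 at 6 h and -0.28 to 0.0099 at 12 h, and AT1G54410 from -0.48 to -0.38 at 1 h, -0.021 to 0.11 at 6 h and -0.38 to -0.094 at 12 h. The tissue difference of LTI30 over time ranged from -2.71 to -2.05. Differences in change ranged, for LTI30, from -2.71 to -0.95 at 0.5 h, -2.20 to -0.69 at 1 h and -1.998 to -1.30 at 6 h, and were called there without shoot replicate 1 of 0.5 h, shoot replicate 2 of 1 h, and any 1 of the 4 early shoot arrays. They ranged from -0.065 to 0.050 for AT1G54410 at 0.5 h and, for COR47, from -1.92 to 0.49 at 1 h and -0.54 to 0.077 at 12 h. The cause of these shifts was not tested. With the replicate number as a block, all 87 values kept their call and direction (LTI30 in shoots at 3 h, 2.83).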
